A study of Mus musculus with 6 samples.

Results

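Retina and lens autoantigen genes are genes of the eye whose proteins are targets of autoimmune inflammation when tolerance to them fails, and 9 of them were followed in the epithelium of the mouse thymus, whose cells (TEC) select developing T cells. They were taken by name: Rbp3, Sag, Gnat1, Pde6b and Rcvrn of the photoreceptor, and Cryaa, Cryab, Crygs and Cryba1 of the lens. They are 9 of the 28032 genes on the array and are read by 13 of its 41174 probes. All 6 arrays carry RNA of CD45- EpCAM+ TEC, sorted from 4-week-old C57BL/6 mice that carry the bacterial artificial chromosome transgene Meis1-EGFP [Tg(Meis1-EGFP)FO156Gsat/Mmcd], in which green fluorescent protein reports activity of the Meis1 locus. Small cells with high EGFP signal formed the Meis1-high gate, large cells of medium EGFP signal the Meis1-low gate, and small EGFP- cells the Meis1-negative gate, so that reporter level and cell size differ together. All groups share the transgene, the strain and the age, and no wild-type group, treatment or sorted eye tissue was analysed here. Each gate was measured on 2 one-colour arrays, each from a pool of 6 mice, and the submitters' design note gives 2 independent experiments. The p-values measure the spread between such pools together with that of slide and scan, which differed between the replicates.

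Medullary TEC transcribe many genes that otherwise belong to single peripheral tissues, and presenting their products deletes or diverts developing T cells that react to them. Part of this promiscuous transcription needs the nuclear regulator Aire, and loss of Aire in mice is known to lead to autoimmune disease of the retina, with Rbp3 as a prominent target. Individual antigens of this kind are typically transcribed in small numbers of medullary TEC at a time, so in a sorted population their signal is often low. In such bulk samples, fewer cells with a transcript and less transcript per cell cannot be told apart.

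The signal of a gene on these arrays comes from its probes, and the members for which the results turn on the probe are shown here by the first 30 bases of each probe, 5′ to 3′, as the array files give them. Positions are on mm9, and where a probe matches more genomic bases than its own 60, its match is interrupted. They are in lower case, since no base is singled out. The Rbp3 probe lies at chr14:34777247-34777306, the Rcvrn probe at chr11:67516745-67516806 and the Cryba1 probe at chr11:77532943-77533002. The Gnat1 probes lie at chr9:107577023-107577082 and chr9:107578990-107579269, the Cryaa probes at chr17:31818589-31818648 and chr17:31816606-31817969, and the Cryab probes at chr9:50564440-50564499 and chr9:50561281-50561340.
Rbp3 A_51_P331690: tttctctttataagataaatgtgtgactgc
Rcvrn A_51_P503922: cttagggcgtaggagtcctaaatatcattc
Gnat1 A_52_P211185: caaagaatatcccatgtgaggttacaggca
Gnat1 A_51_P160858: ctggtattatcgagactcaattctccttca
Cryaa A_51_P305950: tgtagtattgctcctaaggaccttggtcat
Cryaa A_51_P305956: ggcaaacacaacgagaggcaggatgaccat
Cryab A_52_P106482: ggatcccagccgatgtggatcctctcacca
Cryab A_51_P504423: accattccagaagcttcagaagactgcata
Cryba1 A_51_P113026: gagaaagagaactttattggacgccagtgg

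The remaining probes read Sag at chr1:89724996-89728424 and chr1:89723425-89723484, Pde6b at chr5:108856144-108856203 and Crygs at chr16:22811417-22811476. No other probe of the array has the sequence of a member's probe, and the longest run of bases shared by probes of different members is 9.

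Promoters of 6 members could be matched in a RefSeq table of the build GRCm38.p6. The 250 bases before the start are shown for both lens genes with a higher signal in Meis1-low than in Meis1-high, Cryaa and Cryba1, and for Rbp3, which had none above background. Capitals mark, on either strand, the recognition core of Maf proteins TGCTGA, the homeodomain core of Crx-type factors TAATCC and the TATA box TATAAA, none of which overlaps another here.
Cryaa, chr17:31677681-31677930, plus strand: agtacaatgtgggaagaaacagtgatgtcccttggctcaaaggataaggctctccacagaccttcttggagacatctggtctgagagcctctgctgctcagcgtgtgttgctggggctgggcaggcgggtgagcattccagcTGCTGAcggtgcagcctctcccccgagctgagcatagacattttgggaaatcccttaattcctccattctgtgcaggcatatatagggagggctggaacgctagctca
Cryba1, chr11:77725294-77725543, minus strand: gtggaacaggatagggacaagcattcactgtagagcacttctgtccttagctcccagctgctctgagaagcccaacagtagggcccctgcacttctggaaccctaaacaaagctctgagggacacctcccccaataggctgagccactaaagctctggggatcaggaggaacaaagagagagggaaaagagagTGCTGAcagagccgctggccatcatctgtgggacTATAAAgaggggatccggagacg
Rbp3, chr14:33953753-33954002, plus strand: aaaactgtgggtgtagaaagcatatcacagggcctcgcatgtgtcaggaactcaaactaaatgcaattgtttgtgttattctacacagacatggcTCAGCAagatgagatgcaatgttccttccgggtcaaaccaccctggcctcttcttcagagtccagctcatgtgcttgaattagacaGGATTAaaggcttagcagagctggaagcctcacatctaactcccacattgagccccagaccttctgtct

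Each of the 6 promoters (Rbp3, Sag, Pde6b, Cryaa, Crygs and Cryba1) holds 1 match to TGCTGA, which 15.8% of all 27025 promoters hold in the same 250 bases. The first base of the match stands at -108 in Cryaa, -57 in Cryba1 and -155 in Rbp3, counted so that -1 is the last base before the start. TAATCC is in the windows of Rbp3, Sag and Crygs and in 6.38% of all promoters. TATAAA is in those of Sag, Crygs and Cryba1 and in 13.0% of all promoters, and in Cryba1 it begins at -23. These matches describe letters only, and genes with and without a signal in TEC share them: Rbp3 and Cryba1 both hold TGCTGA.

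The signal at the 75th percentile of an array ranged from 73.3 to 165.2, and 53.1% to 69.6% of spots were well above background, the scanner software's own mark. Levels below are log2 signals minus that percentile, and levels of different probes are not set against each other. All 12 TEC markers listed were well above background on every array. Meis1 itself read 0.24 and 0.12 for Meis1-high cells, -2.35 and -1.61 for Meis1-low cells and -3.20 and -0.99 for Meis1-negative cells, so its low and negative gates overlapped. Meis1-negative replicate 1 stood apart. Its summed signal of 21 thymocyte and T cell markers was 1275 times the 75th percentile, against 36.8 on replicate 2 and 12.8 to 23.2 on the other arrays, although the gate was CD45-. Its summed signal of the TEC markers was 194, against 519 to 914 elsewhere.

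Although the lowest level marked well above background differed by array, eye antigen transcripts were read most often in the Meis1-low gate. There, 9 of the 13 probes, reading 7 of the 9 genes, were well above background on both arrays, against 58% of all probes on the array. In Meis1-high 3 of 13 were, reading Cryaa and Cryab, against 50.8% of all probes, and in Meis1-negative 4 of 13 were, reading Cryaa, Cryab and Cryba1, against 51.6%. No photoreceptor probe was well above background on both arrays of Meis1-high or of Meis1-negative, and 3 were in Meis1-low, 1 each for Sag, Gnat1 and Rcvrn. Array by array, 4 and 6 of 13 probes were above background in Meis1-high (all probes 52.6% and 65.5%), and 11 and 9 in Meis1-low (all probes 61.4% and 67.6%). In Meis1-negative it was 4 on replicate 1 and 9 on replicate 2 (all probes 53.6% and 69%). Replicate 2 of Meis1-negative had as many as replicate 2 of Meis1-low, while replicate 1 had as few as Meis1-high. The lowest level so marked was -3.21 on Meis1-high replicate 1 and -3.69 on Meis1-negative replicate 1. On the other arrays it lay between -4.31 and -4.03. Sag on probe A_51_P511431, at -3.35 and -3.88 for Meis1-low cells, lay below -3.21. So did Crygs on Meis1-low replicate 2, at -3.70. The other probes counted on both Meis1-low arrays lay above it. The part of these limits in the counts was not tested.

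**Figure D1:**
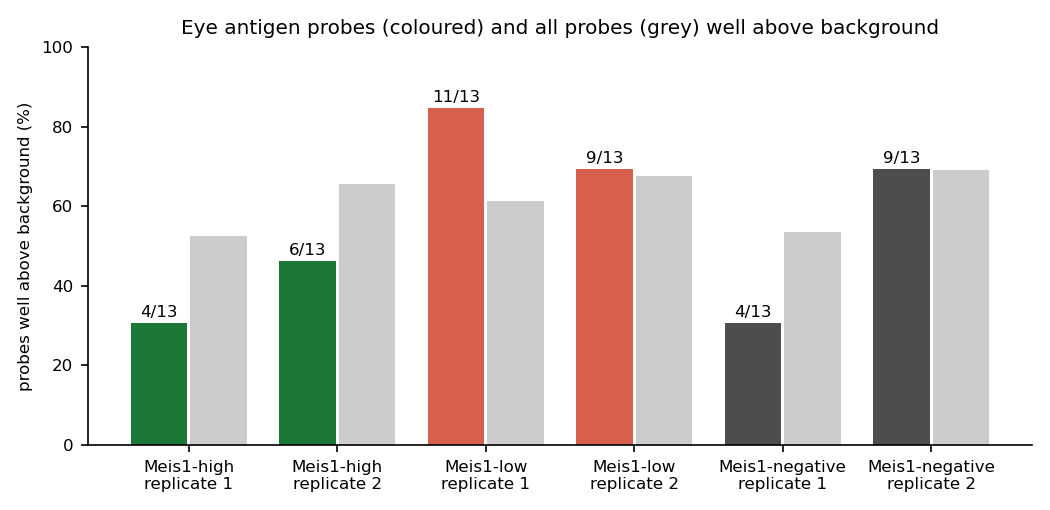
Percent of probes well above background on each array, for the 13 eye antigen probes (coloured, with counts) and all 41174 probes (grey). The eye antigen bar stands clearly above the grey bar on Meis1-low replicate 1, near it on the second replicates of Meis1-low and Meis1-negative, and below it on the other 3 arrays.

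Among the photoreceptor genes, Rbp3, the carrier of retinoids between photoreceptors and pigment epithelium, was not read above background anywhere. Its levels were -4.82 and -6.22 for Meis1-high cells, -6.48 and -6.36 for Meis1-low cells and -5.85 and -6.50 for Meis1-negative cells. None of these was well above background, so they have no order, and Rbp3 was not tested. A signal this low does not show that the transcript is absent.

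Sag encodes rod arrestin, also known as S-antigen, which ends the light response of the rod. Its probe A_51_P511431 read -5.42 and -3.85 for Meis1-high cells, -3.35 and -3.88 for Meis1-low cells and -5.87 and -4.22 for Meis1-negative cells. Both Meis1-low arrays and Meis1-high replicate 2 were well above background, and Meis1-high replicate 2 lay between the Meis1-low arrays. Both Meis1-low arrays lay above both Meis1-negative arrays, which were not well above background, and the Meis1-low mean was at least 1.27-fold above the Meis1-negative mean. That bound does not cover the spread between arrays. Within slides the log2 difference was 2.52 and 0.34, the first against the Meis1-negative array rich in thymocyte transcripts. Its other probe, A_52_P39782, read between -4.53 and -3.31, was well above background on Meis1-low replicate 1 alone, and was not tested.

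Gnat1 encodes the alpha subunit of rod transducin, the G protein of the rod's light response. Its tested probe, A_52_P211185, read -4.07 and -6.13 for Meis1-high cells, -2.79 and -2.28 for Meis1-low cells and -5.75 and -3.01 for Meis1-negative cells. Both Meis1-low arrays stood above the other 4, neither Meis1-high array was well above background, and the gap to Meis1-high was at least 2.13-fold. The second probe, A_51_P160858, read -4.48 and -2.68 for Meis1-high cells, -3.10 and -4.06 for Meis1-low cells and -5.70 and -2.49 for Meis1-negative cells. On that probe 1 array of each gate was well above background and all gates overlapped, so the probes of Gnat1 disagree.

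Pde6b encodes the beta subunit of the rod phosphodiesterase that hydrolyses cGMP. It read -2.69 and -4.34 for Meis1-high cells, -6.40 and -5.66 for Meis1-low cells and -5.72 and -4.64 for Meis1-negative cells. It is the one member whose only array above background was a Meis1-high array, replicate 1, so it was not tested. With 1 of 2 Meis1-high arrays measured, no fold is given.

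Rcvrn encodes recoverin, a calcium-binding protein of the photoreceptor that is a target of cancer-associated retinopathy in humans. It read -4.99 and -5.13 for Meis1-high cells, -2.40 and -2.62 for Meis1-low cells and -5.62 and -3.27 for Meis1-negative cells. Both Meis1-low arrays stood above the other 4, and the Meis1-high arrays were not well above background. The Meis1-low mean was at least 2.16-fold above Meis1-high.

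Of the lens genes, Cryaa encodes alpha A crystallin, a small heat shock protein that keeps lens proteins soluble. Its probe A_51_P305950 was well above background on all 6 arrays. It read -1.77 and -2.36 for Meis1-high cells, 1.27 and 0.07 for Meis1-low cells and -2.54 and -0.43 for Meis1-negative cells. Both Meis1-low arrays lay above the other 4, and Meis1-high and Meis1-negative overlapped. The second probe, A_51_P305956, also had both Meis1-low arrays above the other 4, with -3.11 and -4.68 for Meis1-high cells, -1.78 and -1.35 for Meis1-low cells and -5.02 and -2.39 for Meis1-negative cells. On it the Meis1-high arrays were not well above background, at least 4.02-fold below Meis1-low.

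Cryab encodes alpha B crystallin, a small heat shock protein that many tissues besides the lens use. Its probe A_52_P106482 read 4.09 and 3.67 for Meis1-high cells, 4.33 and 3.35 for Meis1-low cells and 1.06 and 2.78 for Meis1-negative cells. Meis1-high and Meis1-low overlapped, and both lay above Meis1-negative. Its probe A_51_P504423 gave another order, with -0.75 and 0.13 for Meis1-high cells, -1.27 and -1.15 for Meis1-low cells and -1.19 and -0.75 for Meis1-negative cells. There both Meis1-high arrays lay above Meis1-low, and Meis1-low and Meis1-negative overlapped. Both probes were well above background on all 6 arrays.

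Crygs encodes gamma S crystallin, a structural protein of the lens cortex. It read -3.08 and -3.66 for Meis1-high cells, -3.02 and -3.70 for Meis1-low cells and -5.31 and -4.04 for Meis1-negative cells. The Meis1-high and Meis1-low arrays spanned nearly the same range, although Meis1-high replicate 1 was not well above background.

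Cryba1 encodes beta A3 and beta A1 crystallin, structural proteins of the lens fibre. It read -5.03 and -4.46 for Meis1-high cells, -0.54 and -0.98 for Meis1-low cells and -2.54 and -0.62 for Meis1-negative cells. Both Meis1-high arrays were not well above background and lay below the other 4. The Meis1-high mean was at least 7.26-fold below Meis1-low and at least 4.12-fold below Meis1-negative. Of the 9 genes it was the only one whose Meis1-negative arrays both lay above Meis1-high while well above background, as 12.3% of all probes did.

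**Figure D2:**
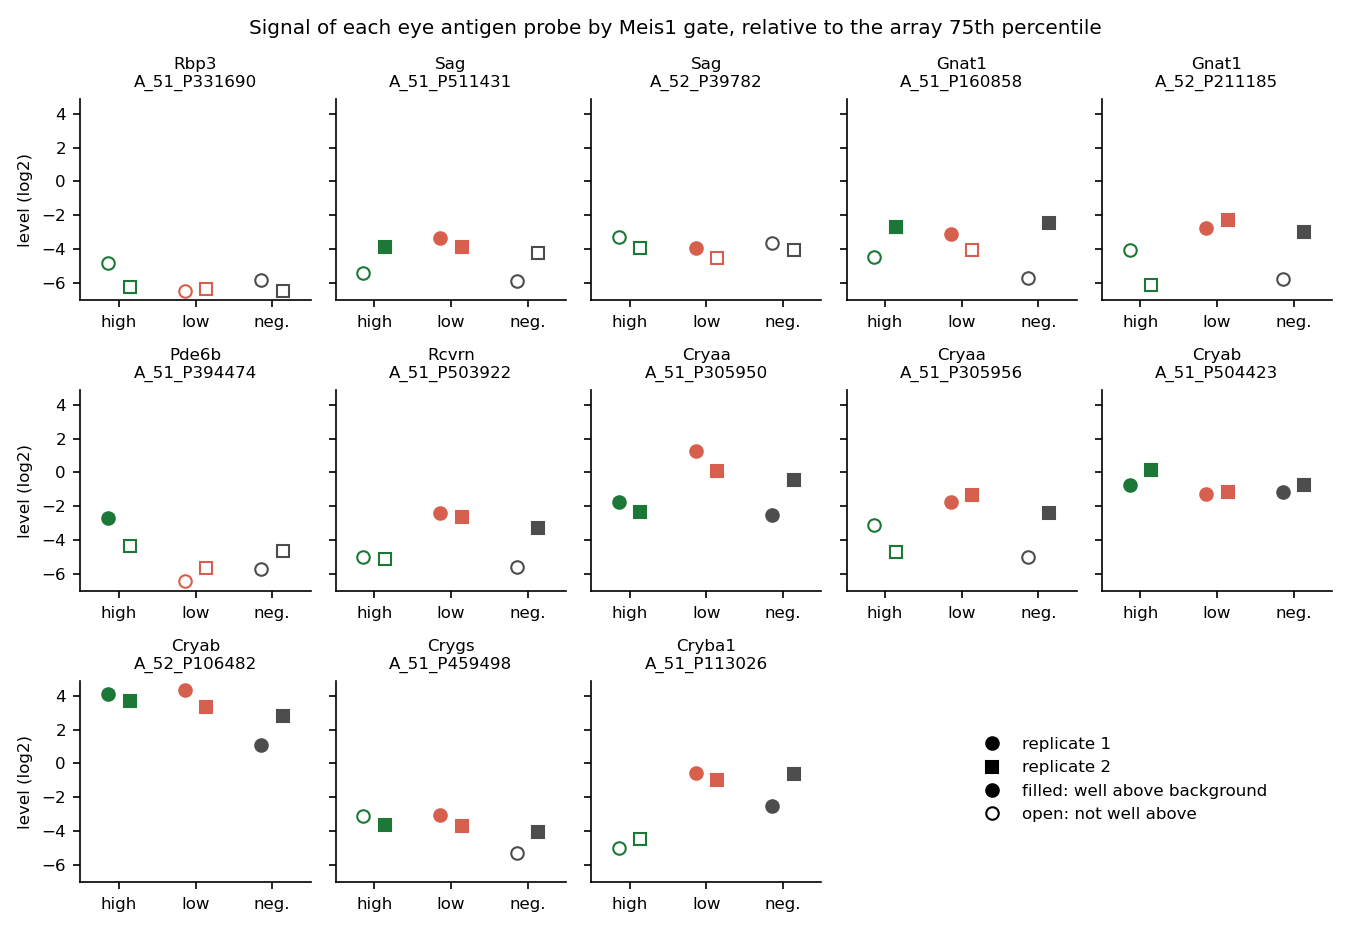
Level of each of the 13 probes (log2 signal minus the array's 75th percentile) on every array, by Meis1 gate. Circles are replicate 1 and squares replicate 2. Filled symbols are well above background, as all 4 symbols of Meis1-low are for both Cryaa probes, while the Cryba1 symbols of Meis1-high are open at -5.03 and -4.46.

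Setting Meis1-high against Meis1-low asked how the small cells with bright reporter differ from the large cells with intermediate reporter. Cryba1, Cryaa (both probes), Rcvrn and the tested probe of Gnat1 were lower in Meis1-high on both arrays, while Gnat1 on its other probe overlapped between the gates, with a difference of 0.00 and of -1.38 and 1.38 by slide. Sag on probe A_51_P511431, Crygs and Cryab on probe A_52_P106482 overlapped too, and Cryab on probe A_51_P504423 was higher in Meis1-high by 0.90 ± 0.64 (SE). The untested genes had higher means in Meis1-high, with differences of 0.90 for Rbp3 and 2.51 for Pde6b, as did the other Sag probe, at 0.62. In these gates only Meis1-high replicate 1 for Pde6b and Meis1-low replicate 1 for that Sag probe were well above background, so no size is read. The log2 difference, Meis1-high minus Meis1-low, was -3.98 ± 0.79 (SE) for Cryba1, -2.74 ± 0.87 for Cryaa, -2.57 ± 1.07 for Gnat1 and -2.55 ± 0.84 for Rcvrn. None passed after adjustment over 18221 genes, with limma's adjusted p at 0.250, 0.291, 0.378 and 0.296. This fit takes its spread from all 3 gates, the Meis1-negative arrays included. Fitted to only the 4 arrays compared, none passed either, with limma's adjusted p at 0.097, 0.102, 0.154 and 0.098. The difference was -1.02 ± 0.84 for Sag (adjusted p = 0.654 in limma), 0.04 ± 0.78 for Cryab (0.989) and -0.01 ± 0.70 for Crygs (0.997). Over all genes 0% were called, although 2357 had an unadjusted p under 0.05, as did 4 of the 7 eye antigen genes tested. Sag, Gnat1, Rcvrn and Crygs entered the test only through the Meis1-low gate. A lower Meis1-high mean of these genes is partly set by that filter. Counts over the tested genes partly reflect it too, and nothing is read from them.

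Counted by probe, 5 of the 13 had both Meis1-low arrays well above background and above both Meis1-high arrays, against 18% of all probes. They read Gnat1, Rcvrn, Cryaa (both probes) and Cryba1. The opposite order held for 1 probe, of Cryab, against 15% of all probes. Within slides, the difference was -4.49 and -3.48 for Cryba1, -3.04 and -2.44 for Cryaa, -2.60 and -2.50 for Rcvrn, and -1.28 and -3.85 for Gnat1. Of these 4 genes, only Cryaa had both gates well above background on both slides. The Meis1-high levels of Cryba1, Rcvrn and Gnat1 were not, so those values give a direction and no size. For Rcvrn and Gnat1 the filter partly sets that direction.

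**Figure D3:**
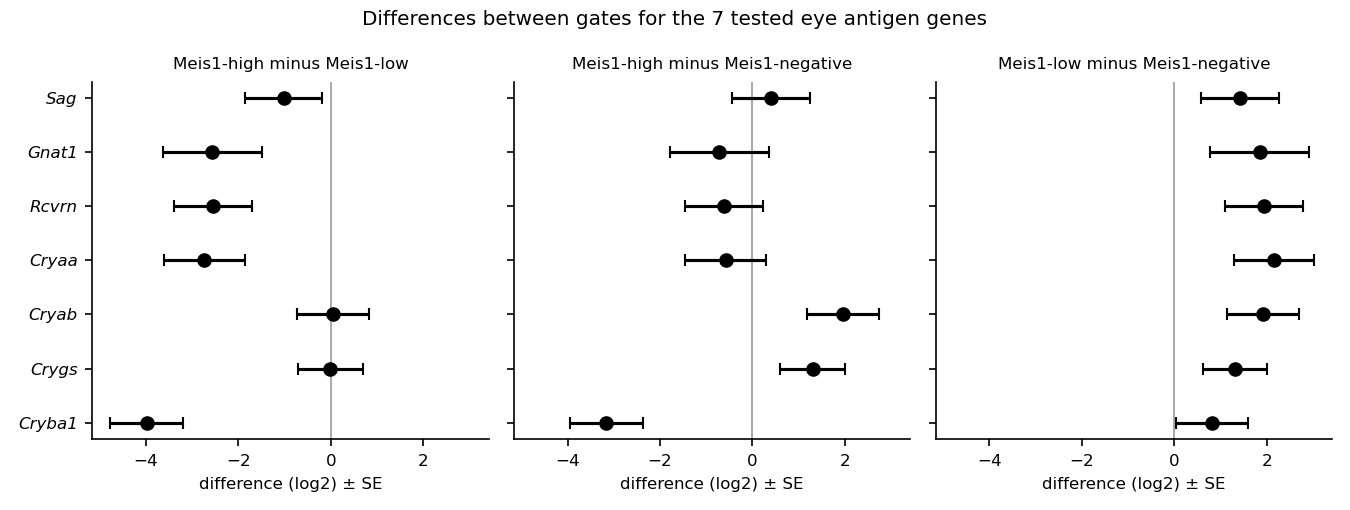
Log2 difference between gates with its standard error from limma, for the 7 tested genes in 3 comparisons of 2 arrays each. Cryba1, Cryaa, Rcvrn and Gnat1 lie left of 0 in the first panel, and none of the 7 passed the adjusted threshold in any panel. Sag, Gnat1, Rcvrn and Crygs entered the test only through the Meis1-low gate, which partly sets their side of 0 in the first and last panels.

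The difference between Meis1-high and Meis1-low came with levels of other genes. Aire read 1.19 and 2.69 for Meis1-high cells and 3.87 and 4.65 for Meis1-low cells. Fezf2, another regulator of promiscuous transcription, read 2.92 and 1.85 for Meis1-high cells and 3.48 and 2.73 for Meis1-low cells, and its gates overlapped. The summed signal of 10 genes of mature medullary and Aire-stage TEC was 63.3 and 57.9 times the 75th percentile in Meis1-high and 202 and 144 in Meis1-low. Both Meis1-low arrays stood above Meis1-high for 6 of the 10, against 20% of all genes when 1 probe stood for each. For 15 macrophage and dendritic cell markers the sum was 19.5 and 14.5 in Meis1-high and 53.2 and 50.02 in Meis1-low, with 9 of 15 higher in Meis1-low and 1 of 15 above background on no array. For 7 erythroid markers it was 0.75 and 1.15 against 6.28 and 5.13, with 6 of 7 higher. In the other direction, the sum of 10 fibroblast and pericyte markers was 150.1 and 97.7 in Meis1-high and 82.4 and 73.6 in Meis1-low. Of these, 6 of 10 were higher in Meis1-high, against 14.2% of all genes by 1 probe. Of the 12 TEC markers, Meis1-high was higher for 5 and Meis1-low for 2, and of 21 thymocyte and T cell markers for 5 and 3. For 6 pan-leukocyte markers these counts were 1 and 3, for 7 B cell markers 0 and 2, and for 6 endothelial markers 1 and 1. The part of these cells in the eye antigen differences was not tested.

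The next comparison set the large Meis1-low cells against the small Meis1-negative cells. The log2 difference, Meis1-low minus Meis1-negative, was 2.16 ± 0.87 (SE) for Cryaa and 0.82 ± 0.79 for Cryba1. Cryab differed by 1.92 ± 0.78, Rcvrn by 1.94 ± 0.84, Gnat1 by 1.85 ± 1.07, Sag by 1.43 ± 0.84 and Crygs by 1.32 ± 0.70. A higher Meis1-low mean of Sag, Gnat1, Rcvrn and Crygs is partly set by the filter. The untested genes had lower means in Meis1-low, with differences of -0.25 for Rbp3 and -0.85 for Pde6b, neither of them well above background in these gates. So did the other Sag probe, at -0.41, and the other Cryab probe, at -0.24. None passed, with limma's adjusted p between 0.608 and 0.770, as 0% of all genes did. Over all genes 1473 had an unadjusted p under 0.05, as did 2 of the 7, Cryaa and Cryab.

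By probe, 7 of the 13, reading Sag, Gnat1, Rcvrn, Cryaa, Cryab and Crygs, had both Meis1-low arrays well above background and above both Meis1-negative arrays, against 13.4% of all probes. The opposite order held for 0 of the 13, against 11.2%. Left out in turn, replicate 1 of Meis1-negative left 7 probes in this order, against 21.4% of all probes, and replicate 2 left 8, against 26.4%. The size rested on slide 1, where the Meis1-negative array was the one rich in thymocyte transcripts. The slide 1 and slide 2 differences were 3.81 and 0.50 for Cryaa, 3.27 and 0.57 for Cryab, and 3.23 and 0.64 for Rcvrn. For Cryba1 the direction turned, from 2.00 to -0.36. Without Meis1-negative replicate 2, Rcvrn differed by 3.11, in a fit whose lone Meis1-negative array is the one rich in thymocyte transcripts. The part of thymocyte RNA in these values was not tested.

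**Figure D4:**
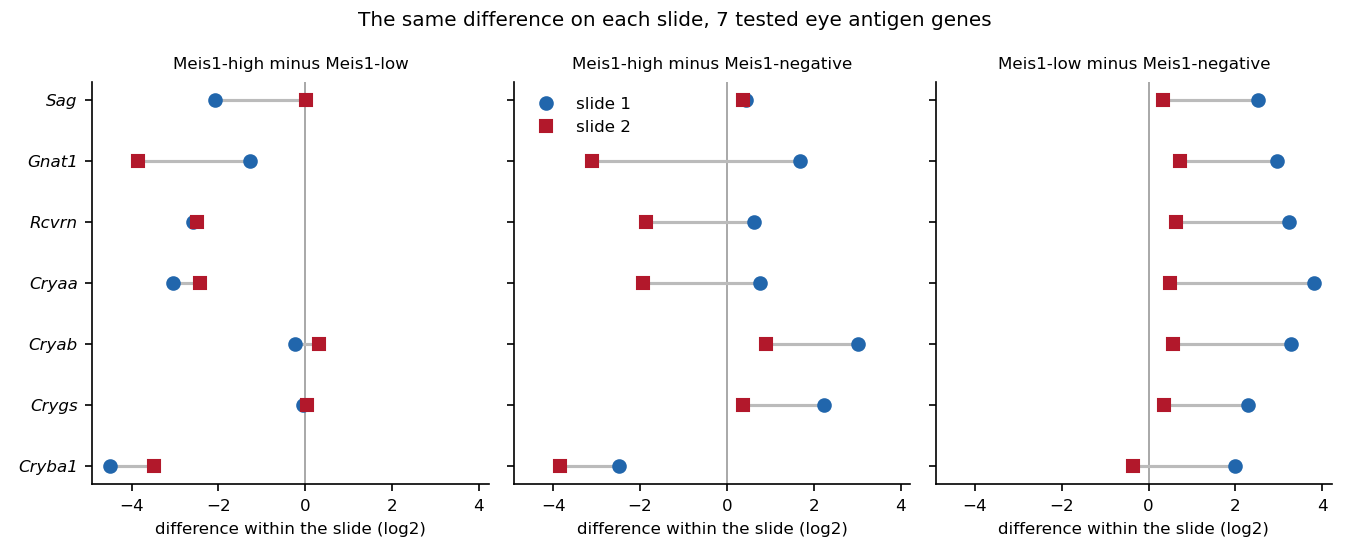
Log2 difference within slide 1 (circles) and within slide 2 (squares) for the 7 tested genes in 3 comparisons, each point from 1 array of each gate. Cryba1, Cryaa and Rcvrn keep their side of 0 in the first panel, while every circle in the last panel lies further right than its square.

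The last comparison set the small cells with bright reporter against small cells without it. Cryab was higher in Meis1-high on probe A_52_P106482 and Cryba1 was lower, and among the other 5 tested genes Crygs had both Meis1-high arrays above both Meis1-negative arrays while the rest overlapped. The log2 difference was 1.96 ± 0.78 for Cryab (adjusted p = 0.450 in limma) and -3.16 ± 0.79 for Cryba1 (adjusted p = 0.303 in limma). It was 1.30 ± 0.70 for Crygs, 0.41 ± 0.84 for Sag, -0.72 ± 1.07 for Gnat1, -0.61 ± 0.84 for Rcvrn and -0.58 ± 0.87 for Cryaa. Cryab on probe A_52_P106482 was the only probe of the 13 with both Meis1-high arrays well above background and above both Meis1-negative arrays, against 12.3% of all probes. Crygs and Pde6b also had both Meis1-high arrays above both Meis1-negative arrays, but 1 Meis1-high array of each was not well above background. Of all genes 0% were called, with 1920 at an unadjusted p under 0.05, as 2 of the 7 were. Within slides, Cryba1 kept its direction at -2.49 and -3.84, Cryab at 3.03 and 0.89, Crygs at 2.23 and 0.38, and Sag at 0.44 and 0.37. Gnat1 turned from 1.68 to -3.12, Rcvrn from 0.63 to -1.86 and Cryaa from 0.77 to -1.93. The Meis1-negative array of slide 1 is again the one rich in thymocyte transcripts, and the differences of Cryab and Crygs were larger there. Its part in these values was not tested.

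Over all 9 genes, each by its probe with the highest mean and with no filter, the median log2 difference was 0.00 for Meis1-high minus Meis1-low, 0.51 for Meis1-high minus Meis1-negative and 0.82 for Meis1-low minus Meis1-negative. The same medians over all 28032 genes were 0.19, 0.17 and -0.12. The first of these turns on which probe stands for Sag and Gnat1, since with the tested probes it was -1.02. By slide, the first was -0.24 and 0.15, the second 1.03 and 0.10, and the third 2.29 and 0.13.

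The gene closest to Sag over the 6 arrays was Dok4, with a Pearson correlation of 0.996, followed by Cutal, Henmt1, Creb3l1 and Pla2g5 at 0.995 to 0.992. Closest to Cryab was Cyb561 at 0.999, followed by Fam214b, Ift43, Crygs and Chil1 at 0.997 to 0.992. Sag was not well above background on 3 of the 6 arrays, so its order rests largely on such values. With 6 arrays in 3 gates these correlations describe shared profiles only, and the arrays share their amplification and scaling. Cyb561 read 1.68 and 1.23 for Meis1-high cells, 1.78 and 0.95 for Meis1-low cells and -0.82 and 0.52 for Meis1-negative cells. Like Cryab it was lowest on Meis1-negative replicate 1. Crygs, itself an eye antigen, is among the 5 genes closest to Cryab. It too was lowest on Meis1-negative replicate 1, at -5.31, and there and on Meis1-high replicate 1 it was not well above background.

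Other genes of the same pathways were read from 9 related lists, none of whose genes passed the test in either direction. Gngt1, the gamma subunit of rod transducin, read -5.44 and -5.38 for Meis1-high cells, -2.33 and -2.69 for Meis1-low cells and -5.21 and -4.38 for Meis1-negative cells. Only its Meis1-low arrays were well above background, and the adjusted p of limma's moderated F test was 0.303. Of 29 other phototransduction genes on the array, 10 had both Meis1-low arrays well above background and above Meis1-high, and 2 had the opposite order. Over all genes by 1 probe, these orders held for 20% and 14.2%. One of the 2 was Gnb3, a beta subunit of cone transducin, at 1.09 and 1.51 for Meis1-high cells and -1.69 and -1.05 for Meis1-low cells.

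Of 16 genes of photoreceptor structure and regulation, 3 were higher in Meis1-low than in Meis1-high in the same sense, near the share over all genes. Over all genes by 1 probe, 20% were higher in Meis1-low and 14.2% in Meis1-high. Of the 16 genes, 7 were well above background on no array. Impg2, a proteoglycan of the matrix around photoreceptors, read -5.34 and -5.47 for Meis1-high cells and -2.25 and -1.79 for Meis1-low cells. The photoreceptor regulator Nrl read -5.24 and -2.31 for Meis1-high cells and -1.47 and -1.01 for Meis1-low cells, and Crx, the homeodomain factor of photoreceptors, was well above background on no array. Of 17 genes of the visual cycle and pigment epithelium 6 were higher in Meis1-low and 1 in Meis1-high.

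Among 11 other crystallins on the array, 5 were higher in Meis1-low than in Meis1-high and 0 the other way. Over all genes by 1 probe, these orders held for 20% and 14.2%. Cryba4 read -3.01 and -4.20 for Meis1-high cells, -0.90 and -1.20 for Meis1-low cells and -2.67 and -1.39 for Meis1-negative cells. Crybb2 read -4.97 and -4.66 for Meis1-high cells, -2.62 and -2.30 for Meis1-low cells and -3.60 and -3.03 for Meis1-negative cells. For both, neither Meis1-high array was well above background, as for Cryba1. Of 11 lens fibre genes, 3 were higher in Meis1-low, against the same 20% of all genes. Mip, the water channel of the lens fibre, read 0.75 and -0.10 for Meis1-high cells, 3.94 and 2.51 for Meis1-low cells and 1.08 and 1.47 for Meis1-negative cells.

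Beside the next lists, 20% of all genes by 1 probe were higher in Meis1-low than in Meis1-high and 14.2% in Meis1-high. Of 13 regulators of the eye field and lens, 1 was higher in Meis1-low and 1 in Meis1-high. The latter was Prox1, at 0.35 and -2.06 for Meis1-high cells and -5.10 and -3.66 for Meis1-low cells, while 7 of the 13, Pax6 among them, were well above background on no array. The small heat shock relatives of Cryaa and Cryab split, with 3 of 8 higher in Meis1-low and 2 in Meis1-high. Hspb1, a widely expressed chaperone like Cryab, read 3.60 and 3.36 for Meis1-high cells, 3.01 and 2.03 for Meis1-low cells and -0.10 and 1.63 for Meis1-negative cells. Against Meis1-negative, 5 of these 8 genes were higher in Meis1-low, as were 8 of the 29 phototransduction genes and 5 of the 11 crystallins, where 15.2% of all genes by 1 probe were. Enzyme and taxon crystallins, which are housekeeping enzymes or their relatives, had 0 of 4 higher in Meis1-low than in Meis1-high and 1 in the opposite order. Of 10 regulators of promiscuous transcription, 3 were higher in Meis1-low, among them Aire and Sirt1, a deacetylase that acts on Aire, at 1.16 and 1.86 against 3.66 and 3.49.

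**Figure D5:**
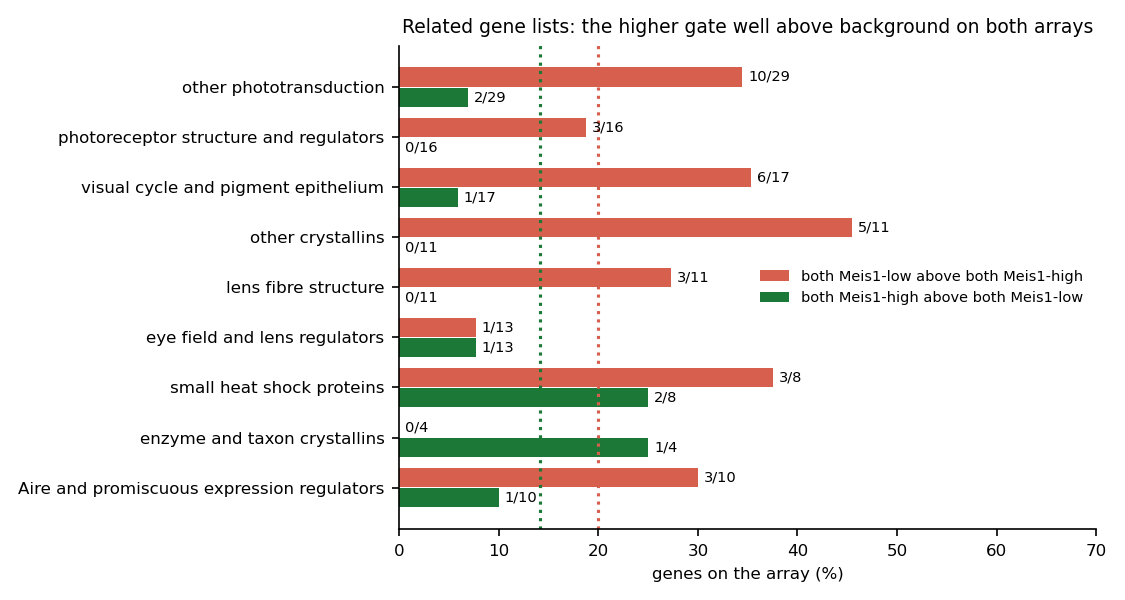
Percent of each related list's genes on the array with both arrays of one gate well above background and above both arrays of the other, with counts, for Meis1-low over Meis1-high and the reverse. Dotted lines are the same shares over all 28032 genes, 20% and 14.2%. Crystallins reach 5 of 11 in the first direction and 0 in the second.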

How the data were processed

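Levels came from 6 one-colour arrays of 41174 probes each. Per the file headers and the submitters' processing notes, the authors read the scans with Agilent Feature Extraction 9.5.3.1, and the deposited signal is an intensity, background-subtracted and not scaled between arrays, with probe positions on mm9. The authors' deposited value table holds log2 values that were scaled by array and set to a median of 0 for every probe, and was an alternative. Its columns correlated with the scaled signal at 0.99989 or above. Between 15.5% and 28.2% of the signals on an array are surrogate values set by the software. RNA (10 ng per array) was amplified before labelling, per the labels' protocols, which can spread low signals.

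Control spots and the 53 to 78 outlier spots per array were left out, spots of a probe were averaged, and log2 signals were taken relative to the 75th percentile of their array. Probes marked well above background (13 times the background SD, per the file headers) on both arrays of any gate entered the test, leaving 26590 probes. They read 18221 genes, each tested by the brightest of its probes that entered. For Sag and Gnat1 the probe with the highest mean over the arrays did not enter. Of the members, 7 genes and 9 probes were tested, and Rbp3 and Pde6b were not. limma 3.58.1 in R 4.3.3 was fitted to all 6 arrays with a mean for each gate, leaving 3 residual degrees of freedom, with Benjamini-Hochberg adjustment over all genes tested and a threshold of 0.05. The fit was tested on simulated data. Precision is limited by having 2 arrays for each gate. A bound ("at least") sets the bright gate's mean against the higher of the dim probe's level and the lowest level well above background on its array, per array, then averaged. It does not cover the spread between arrays. Replicate 1 of every gate shared a slide and a scan, per the file headers, as did replicate 2. No label pairs the pools. Replicate differences of the gates correlated across genes at 0.209 (Meis1-high with Meis1-low), 0.128 (Meis1-high with Meis1-negative) and 0.125 (Meis1-low with Meis1-negative), over 2 pairs.

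The members, lists and tests were chosen with earlier results of these data known. The genes named were the 9 members, Aire, Fezf2 and Meis1, up to 4 tested genes with the smallest F p of each related list, and the 5 tested genes that correlate best with Sag (Rbp3 was not tested) and with Cryab. Some genes that this rule takes are not reported here. Crx and Pax6 were named after their values were seen. Promoters came from RefSeq, GRCm38.p6. Figures were drawn with matplotlib 3.10.9 and tables with pandas 2.3.3 in Python 3.11.15.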

Additional observations from a re-analysis of the deposited data

How the results depend on the processing

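Of 375 log2 differences of members under alternative settings, 358 kept their direction and side of the threshold, 16 turned direction and 1 passed. Many of these could not turn, since some settings change only the spread and some leave out an array outside the comparison. Under every setting that they entered, Cryba1, Cryaa, Rcvrn and the tested probe of Gnat1 were lower in Meis1-high than in Meis1-low. Gnat1's other probe entered none and differed by 0.00. For the tested probes, size did depend on the processing. The normexp setting adds 50 to each background-corrected signal, which shrinks log2 differences of dim signals. With it the differences were -0.99 for Cryba1, -1.48 for Cryaa, -0.50 for Rcvrn and -0.47 for Gnat1. The "at least" bounds of Cryba1, Rcvrn and Gnat1 between these gates therefore do not hold under normexp. The count of genes called moved with the processing. For Meis1-high minus Meis1-low it was 242 with normexp. For Meis1-high minus Meis1-negative it was 307 with normexp, 78 with median scaling, 21 with a floor, 4 with a variance trend and robust fitting, and 0 to 951 with each array left out. For Meis1-low minus Meis1-negative it was 129 with normexp, 14 with median scaling, and 0 to 1269 with each array left out. Both highest counts came without Meis1-negative replicate 2, as did the only eye antigen call (0 to 1), of Rcvrn. With the replicate block (slide), 0 genes and 0 eye antigen genes were called in each comparison, and it changed no other call. Median scaling moved the median over the 18221 tested genes in Meis1-high minus Meis1-negative from -0.10 to -0.22. Over all 28032 genes it moved from 0.17 to 0.05.

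Differences that turned were as follows. For Meis1-high minus Meis1-low, Sag was 0.085 with a floor, Crygs 0.024 with quantile scaling, and with each array left out Cryab ranged from -0.45 to 0.53 and Crygs from -0.35 to 0.32. For Meis1-high minus Meis1-negative, Gnat1 was 0.15 and Rcvrn 0.24 with normexp, and with each array left out Sag ranged from -0.42 to 1.23, Gnat1 from -2.09 to 0.65, Rcvrn from -1.79 to 0.56 and Cryaa from -1.64 to 0.48. For Meis1-low minus Meis1-negative, Cryab was -0.24 on its other probe and Cryba1 ranged from -0.14 to 1.78. The median of the 9 members in Meis1-high minus Meis1-low ranged from -0.45 to 0.48 with each array left out, and was -1.02 with the tested probes, an alternative chosen after seeing the data, as were the counts by single array. The other medians ranged from -0.05 to 0.56 (Meis1-high minus Meis1-negative, below 0 without Meis1-high replicate 1) and from 0.08 to 1.95 (Meis1-low minus Meis1-negative) with each array left out. Except where fewer samples or another probe made the change, the cause was not tested. Signal near background limits Rbp3, Pde6b and the Meis1-high values of Gnat1, Rcvrn and Cryba1.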
